A study of Danio rerio with 2 samples.

Results

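T-box and presomitic mesoderm factors are transcription factors and partner proteins that set up the notochord, the somites and the tail of the vertebrate embryo. The 8 genes described are tbxta, tbx16, tbx6, noto, ripply1, mespaa, mespba and ntd5. They were found on the array by their current symbol or an older zebrafish symbol: ntl for tbxta, tbx24 for tbx6, flh for noto, mespa for mespaa and mespb for mespba. The array also carries spots named tbx6. RefSeq lists tbx6 as an older symbol of tbx16l, another T-box gene, and the array has tbx24 as a separate name, so the gene behind the spots named tbx6 is not settled by these files. Those spots are kept apart here and called the tbx6-named spots. With the tbx6-named spots included, the set has 9 array names and 12 spots, of 36305 names and 43839 spots that are not controls. All counts of 9 names or 12 spots below include them, though they may belong to tbx16l.

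Ovulated zebrafish (Danio rerio) oocytes received 10.3 ng per embryo of either the morpholino MO2-ers2a, an antisense oligonucleotide chosen to block translation of the estrogen receptor beta2 transcript (ers2a in the labels, taken here as the gene now named esr2a), or a control morpholino. Embryos were raised at 28.5 C and fixed at 48 or at 8 hours post fertilization (hpf), and whole-embryo total RNA went to Agilent arrays with 2 colours. MO2-ers2a RNA was labelled with Cy5 and MO-control RNA with Cy3 on both arrays. Each age had 1 array, with no replicate and no dye swap, so differences have no replicate check and no test between the morpholinos was possible. A dye effect of a probe and an effect of the morpholino cannot be told apart, and nor can fewer cells of a type and less RNA per cell. The number of embryos per RNA sample is not given in the sources used here.

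In vertebrate gastrulae, Brachyury-type T-box factors are made in the mesoderm progenitors of the margin. They keep the progenitor state and the notochord going, while other T-box factors send cells into the paraxial mesoderm, the tissue that flanks the notochord. As paraxial cells mature in the presomitic mesoderm, T-box factors switch on mesp genes, which lay down the front of the next segment, and ripply genes, which bring in the Groucho repressor and end the T-box programme there. In zebrafish the gastrula is therefore a stage at which this set is active, while by the hatching period trunk segmentation is over.

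Of the spots that are not controls, 21008 (47.9%) at 48 hpf and 19465 (44.4%) at 8 hpf were measured, meaning that both signals, after subtraction of the local background, exceeded a limit set from negative control spots. Levels of stage markers in the MO-control channel followed the age labels: 8 of 8 markers of differentiated tissue were at least 2-fold higher at 48 hpf than at 8 hpf, and 10 of 10 gastrula markers at least 2-fold lower. The targeted receptor was too dim for a ratio, with 0 of its 2 spots measured on either array. As a technical yardstick, log2 ratios of spots that share an array name had a pooled SD of 0.23 on the 48 hpf array and 0.31 on the 8 hpf array. It covers spread within an array and not between embryos.

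At 8 hpf, ntd5 was the single name of the 9 that stood 2-fold apart, and it was 2.64-fold lower in MO2-ers2a embryos. The spots of tbxta, tbx16 and tbx24 were bright in both groups of embryos and each differed by at most 1.27-fold between the groups after loess normalization. That bound depends on the scaling. Over the 9 processing settings tried, the log2 ratio ran from -0.12 to 1.01 for tbxta and from -0.57 to 0.56 for tbx16. The tbx6-named spots were bright too, and their spot B was 1.71-fold higher in MO2-ers2a embryos. ripply1 gave opposite answers from its 2 spots.

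tbxta is the zebrafish Brachyury gene, mutated in no tail fish, which lack a notochord and a tail. Its 1 spot read 49452 in MO2-ers2a embryos and 19646 in MO-control embryos, as signal minus local background. The Cy5 channel was brighter over the array, with a median Cy5 over Cy3 signal of 1.85 over measured spots at 8 hpf. Within-array loess took 1.22 off the log2 ratio of this spot, which left 0.11. The authors' own deposited ratio, converted to log2, was also 0.11, and both are smaller than the yardstick.

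tbx16, mutated in spadetail fish, is needed for cells to leave the margin and form trunk paraxial mesoderm. Its spot A read 31066 in MO2-ers2a embryos and 14416 in MO-control embryos, and its spot B read 1406.5 and 900 in the same order. The log2 ratios were -0.08 and -0.34, with a median of -0.21. The median is smaller than the yardstick of 0.31, while spot B slightly exceeds it. tbx6, the gene mutated in fused somites fish and needed for segment boundaries, was read by the spot named tbx24, at 7503.5 in MO2-ers2a embryos and 3838.5 in MO-control embryos. Its log2 ratio was -0.12.

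The tbx6-named spots were bright as well. Spot A read 70168 in MO2-ers2a embryos and 28468 in MO-control embryos, and spot B read 31704 and 8232.5. Spot A gave a log2 ratio of 0.05 and spot B one of 0.77, so the higher median of 0.41 comes from spot B, which was 1.71-fold higher in MO2-ers2a embryos.

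noto, mutated in floating head fish, encodes a homeobox factor that holds axial mesoderm in the notochord fate. Its spot read 19751 in MO2-ers2a embryos and 9916 in MO-control embryos, a log2 ratio of -0.17. mespaa and mespba encode bHLH factors of the anterior presomitic mesoderm. mespaa read 1137.5 in MO2-ers2a embryos and 663 in MO-control embryos, a log2 ratio of -0.20, and mespba read 765.5 and 486.5, a ratio of -0.28. All 3 ratios are smaller than the yardstick of 0.31.

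ntd5 takes its name from its dependence on ntl, the older name of tbxta. Its 1 spot read 2640 in MO2-ers2a embryos and 3403 in MO-control embryos. It was thus dimmer in Cy5 than in Cy3 before any normalization, at a Cy5 over Cy3 signal of 0.776, where tbxta stood at 2.52. The log2 ratio was -1.40, and the authors' deposited ratio gave -1.49. Of 15492 names measured at 8 hpf, 113 (0.729%) were as low or lower. The ntd5 value rests on 1 spot, and no second spot was there to set beside it. Its call held in 8 of the 9 processing settings tried and ended with centring on all spots without loess, which put it at -0.67. The settings are not independent checks. The brightest-spot and no-filter settings could not change a name with 1 measured spot, and the centrings without loess shift the same ratios by different constants.

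**Figure D1:**
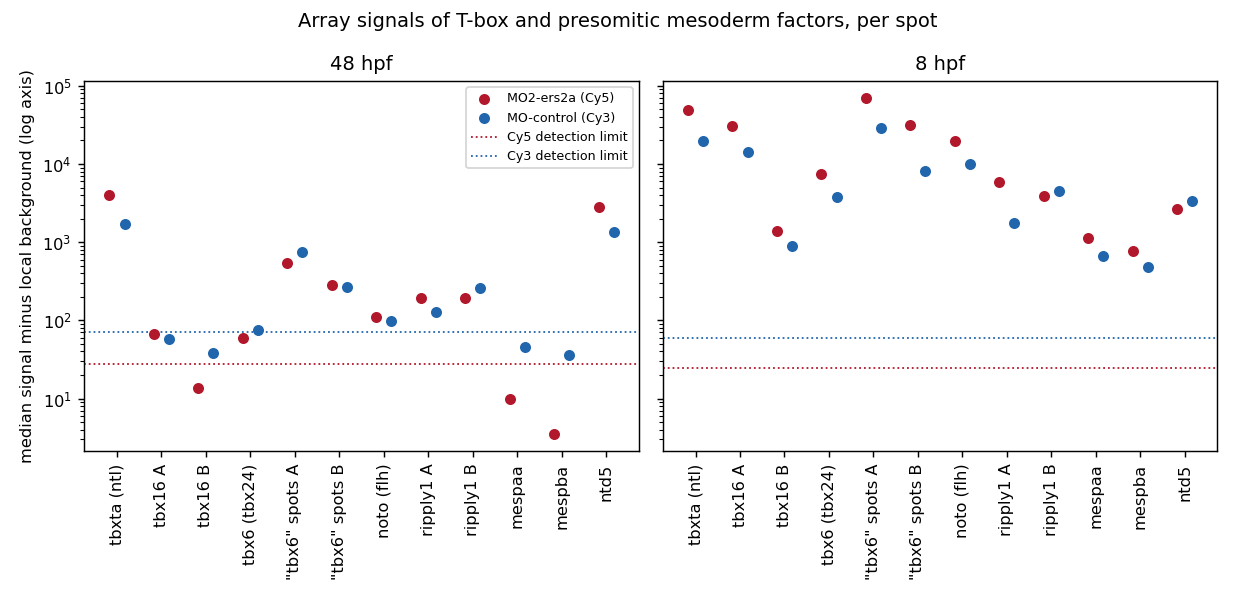
Median signal minus local background (log axis) of each of the 12 spots, with MO2-ers2a (Cy5, red) left of MO-control (Cy3, blue), at 48 hpf (left panel) and 8 hpf (right panel); dotted lines are the detection limits of each channel. At 8 hpf ripply1 spot B and ntd5 have Cy3 above Cy5, and at 48 hpf mespaa, mespba and tbx16 spot B lie under both limits and tbx16 spot A above the Cy5 limit alone, while tbxta and ntd5 stay above 1000 in both channels.

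In counts, 1 of the 9 names was 2-fold lower and 0 were 2-fold higher at 8 hpf. Over the whole array 4.59% of 15492 measured names were 2-fold apart, 2.27% of them lower and 2.32% higher. Below 0 were 7 of the 9 names, and their median log2 ratio was -0.20 beside -0.02 for all measured names. That small offset depends on the scaling: measured against the median of all names it was -0.18 with loess and 0.02 without it. The 3 settings that replaced loess by a centring shift the same ratios by a constant. Their offset is therefore the same by construction and counts as 1 result. Of single spots, 2 of the 12 were 2-fold lower, ntd5 and ripply1 spot B, beside 2.26% of all 19465 measured spots. Apart from ntd5, the names ran from -0.32 for ripply1 to 0.41 for the tbx6-named spots.

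ripply1 encodes a Groucho-binding repressor that lowers T-box activity at the segment border. Spot A read 5845 in MO2-ers2a embryos and 1782 in MO-control embryos. Spot B read 3908 in MO2-ers2a embryos and 4540 in MO-control embryos. The log2 ratio was 0.65 at spot A and -1.28 at spot B, so spot A was 1.56-fold higher and spot B 2.42-fold lower in MO2-ers2a embryos. The split was there before normalization, at a Cy5 over Cy3 signal of 3.28 for spot A and 0.861 for spot B, and in the authors' deposited ratios, at 0.67 and -1.28. The median of -0.32 describes neither spot.

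Disagreement of that size was rare on these arrays. The ripply1 spots differed by 1.92 on the log2 scale at 8 hpf, and 15 of 2548 names with 2 measured spots (0.589%) differed as much. The median difference over those names was 0.21. The tbx6-named spots differed by 0.72, as did or exceeded 7.38% of names, and the tbx16 spots by 0.26, as did or exceeded 41.3%.

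The split came back on the 48 hpf array. There, ripply1 spot A again stood above spot B, by 0.97, a difference reached by 1.51% of 2718 names. The tbx6-named spot B again stood above spot A, by 0.69, reached by 4.05%. Over 2030 names with 2 measured spots on both arrays, the difference between spots on one array went with that on the other at r = 0.31 (Pearson) and rho = 0.26 (Spearman), a description across names on arrays that share probes and dye orientation. Of 55 such names that differed 2-fold at 8 hpf, 40 kept the direction at 48 hpf. The files do not say whether spots of the same name carry the same probe, and the cause of the split was not tested.

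**Figure D2:**
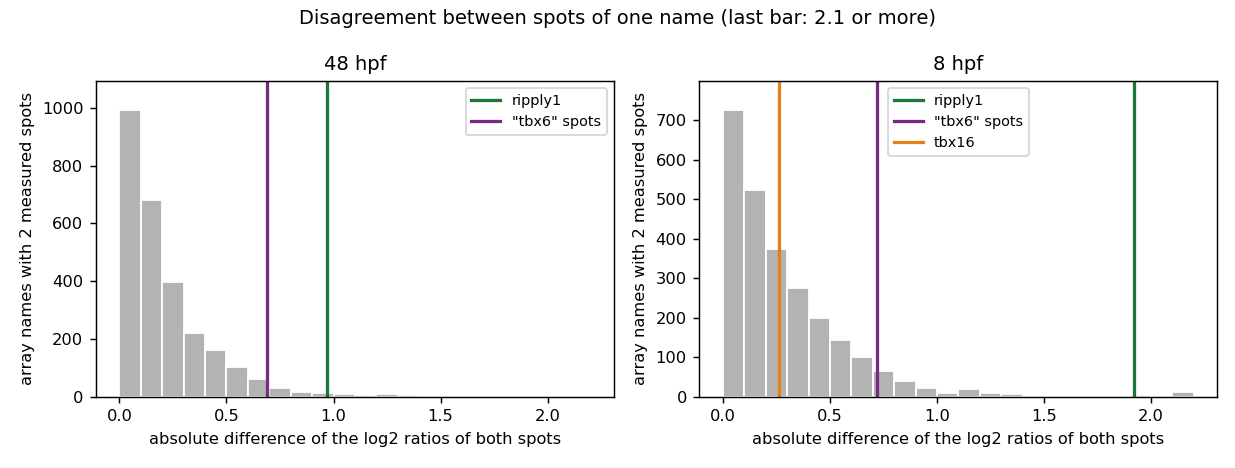
Number of array names (vertical axis) by the absolute difference between the log2 ratios of their 2 measured spots (horizontal axis), at 48 hpf (left) and 8 hpf (right), with coloured lines for ripply1, the tbx6-named spots and tbx16. The ripply1 line lies in the tail on both arrays, at 0.97 and 1.92; the last bar collects differences of 2.1 or more and the tbx16 spots were not measured at 48 hpf.

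At 48 hpf, 6 of the 9 names were measured and 0 were 2-fold apart, beside 2.57% of 16775 names over the array (1.29% higher and 1.28% lower). tbx16, mespaa and mespba had no ratio. tbxta and ntd5 were still bright and both lay somewhat higher in MO2-ers2a embryos, while the tbx6-named spots lay lower.

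tbxta read 4007 in MO2-ers2a embryos and 1715.5 in MO-control embryos, a log2 ratio of 0.44 or 1.36-fold, nearly the authors' 0.46. It stood above 0 in all 9 settings. ntd5 read 2822.5 in MO2-ers2a embryos and 1333.5 in MO-control embryos, a log2 ratio of 0.32 (authors' deposited ratio 0.28), also above 0 in all 9 settings. Both ratios exceed the yardstick of 0.23, but that is 1 SD, so passing it does not mark a difference. Both lie within the middle 95% of all measured names at 48 hpf, -0.83 to 0.80. Both rest on 1 spot, so the brightest-spot and no-filter settings could not change them.

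The tbx6-named spot A read 539.5 in MO2-ers2a embryos and 751 in MO-control embryos, and spot B read 286.5 and 269. Both spots lay lower in MO2-ers2a embryos after normalization, at log2 ratios of -1.06 and -0.38, with a median of -0.72 (1.65-fold lower). After loess, spot A passes 2-fold, as the only one of the 8 measured spots, beside 1.33% of all 21008 measured spots. Taking the brightest spot of each name turns this into a call. The authors' deposited ratios were -1.23 and -0.53. Merging these spots with the tbx24 spot under the current symbol tbx6, an alternative added after seeing the data, gives -0.38 at 48 hpf and 0.05 at 8 hpf.

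ripply1 spot A read 194.5 in MO2-ers2a embryos and 126 in MO-control embryos, and spot B read 193 and 263. The log2 ratios were 0.21 and -0.76, with a median of -0.28. The authors' deposited ratios were 0.19 and -1.02, so spot B passes 2-fold in those. noto read 109 in MO2-ers2a embryos and 97.5 in MO-control embryos, a log2 ratio of 0.01 where the authors' value was 0.31. The tbx24 spot of tbx6 read 59 and 75.5, a ratio of -0.10. The noto and tbx24 readings are close to the limits of 27.7 in Cy5 and 70.1 in Cy3, and with a limit of the mean plus 5 SD only 4 names stayed measured.

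tbx16 spot A read 66 in MO2-ers2a embryos, above the Cy5 limit, and 58 in MO-control embryos, under the Cy3 limit. With Cy3 set at the lowest measured level, its log2 ratio was at least 0.09. This bound is small, approximate and open above, so neither a difference nor its absence can be read from it. Spot B read 13.5 and 38, mespaa 10 and 45, and mespba 3.5 and 36 in MO2-ers2a and MO-control embryos, all under both limits.

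**Figure D3:**
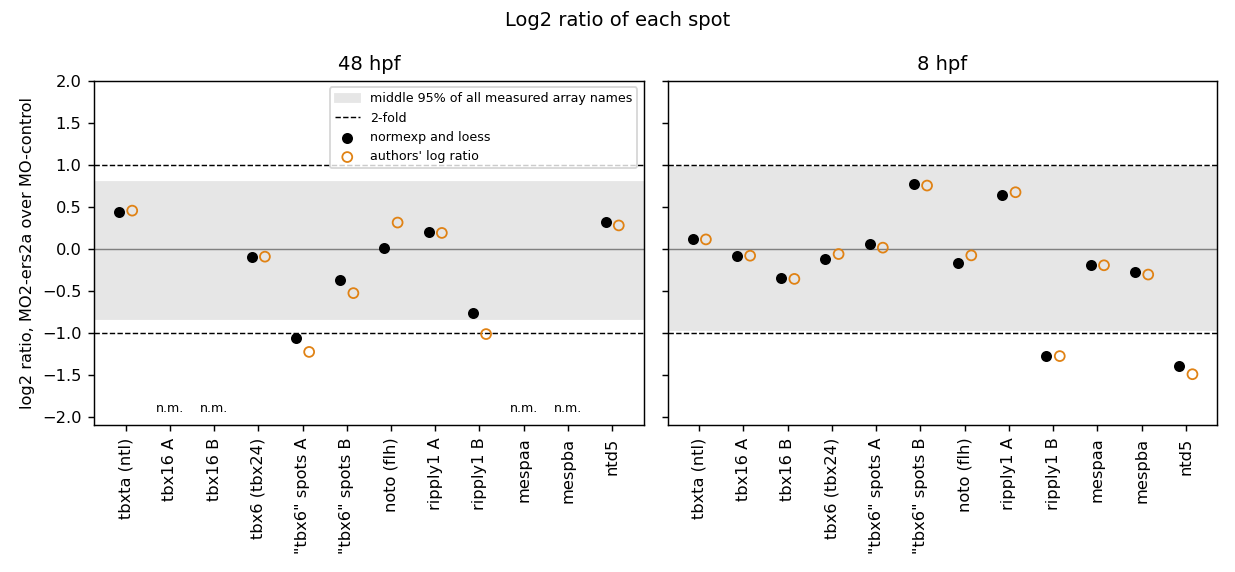
Log2 ratio of MO2-ers2a over MO-control for each spot at 48 hpf (left) and 8 hpf (right), from normexp and loess (filled) and from the authors' deposited ratios (open), for spots measured in both channels; n.m. marks spots that were not. The grey band holds the middle 95% of all measured names and dashed lines mark 2-fold. ntd5 and ripply1 spot B lie below the band at 8 hpf and the tbx6-named spot A at 48 hpf. In the authors' deposited ratios ripply1 spot B also lies below it at 48 hpf.

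Set side by side, 2 of the 6 names measured on both arrays had log2 ratios at least 1 apart between the ages, beside 6.34% of 13288 names over the array. For these 2 names the ratios also lay on opposite sides of 0, which was not counted over the array. For ntd5 the ratio was 0.32 at 48 hpf and -1.40 at 8 hpf, a difference of 1.72. For the tbx6-named spots it was -0.72 at 48 hpf and 0.41 at 8 hpf, a difference of -1.13, which was under 1 in size with spike-in centring (-0.93). Merged with the tbx24 spot, these spots stood at -0.38 at 48 hpf and 0.05 at 8 hpf, also less than 1 apart. The ratios of the other 4 differed by 0.33 for tbxta, 0.02 for the tbx24 spot of tbx6, 0.17 for noto and 0.04 for ripply1. With 1 array per age, none of these differences was tested.

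Levels were set across the ages within a channel, after scaling of the arrays to each other (Aquantile). They were lower at 48 hpf than at 8 hpf by 2-fold or more for 11 of 12 spots in MO2-ers2a embryos and for 12 of 12 in MO-control embryos. Of these, 3 and 4 are approximate bounds, given below as at least a fold, because the spot was under the limit at 48 hpf. The 12 became 11 with quantile normalization of the 4 channels, where ntd5 missed 2-fold. With Aquantile scaling, of the spots above the channel's limit at both ages, 8 of 9 in MO2-ers2a embryos and 8 of 8 in MO-control embryos were as much lower. Over the array, 22.9% of 17568 names in MO2-ers2a embryos and 26.2% of 13543 in MO-control embryos were as much lower. These shares are over names above the limit at both ages and leave out names that fell under it at 48 hpf.

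tbx16 spot A was 145-fold lower at 48 hpf in MO2-ers2a embryos and at least 164-fold lower in MO-control embryos. noto was 74.8-fold lower in MO2-ers2a embryos and 84.2-fold lower in MO-control embryos. tbx6, by its tbx24 spot, was 40.7-fold lower in MO2-ers2a embryos and 41.3-fold lower in MO-control embryos. For noto and tbx6 the folds were close in both groups of embryos. All these levels carry the offset of 50 from the background correction, which makes folds smaller where the 48 hpf signal is dim. The same offset draws the ratios of dim spots together, so close folds are a weak comparison of the groups.

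The tbx6-named spot A was 88.9-fold lower in MO2-ers2a embryos and 41.0-fold lower in MO-control embryos, and spot B 64.3-fold and 29.0-fold lower. The log2 level of ripply1 differed by -4.16 (spot A) and -3.58 (spot B) between 48 and 8 hpf in MO2-ers2a embryos, and by -3.72 and -4.10 in MO-control embryos. mespaa was at least 12.3-fold lower in MO2-ers2a embryos and at least 9.33-fold lower in MO-control embryos, and mespba at least 8.94-fold and at least 7.20-fold. tbxta was 7.07-fold lower in MO2-ers2a embryos and 8.89-fold lower in MO-control embryos, so it was still well above background at 48 hpf.

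ntd5 had another course. Its normalized log2 level was 11.33 in MO2-ers2a embryos and 11.01 in MO-control embryos at 48 hpf, and 10.64 in MO2-ers2a embryos and 12.04 in MO-control embryos at 8 hpf. In MO2-ers2a embryos it was thus 0.68 higher at 48 hpf than at 8 hpf, and in MO-control embryos 1.03 lower. Ordered from high to low, the level was highest in MO-control embryos at 8 hpf, then in MO2-ers2a and MO-control embryos at 48 hpf, and lowest in MO2-ers2a embryos at 8 hpf. That order depends on the scaling: without scaling between the arrays the level was 10.80 in MO-control embryos at 48 hpf, the lowest, and 10.87 in MO2-ers2a embryos at 8 hpf. The changes were then 0.24 and -1.47, and with quantile normalization of the 4 channels 0.60 and -0.99.

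Other genes of the same programme were read from lists drawn up beside the 8 genes. Of the other T-box genes, 13 names are on the array, not counting the tbx6-named spots. At 48 hpf 8 were measured and 0 were 2-fold apart, and at 8 hpf 6 were measured and 0 were 2-fold apart, with medians of 0.01 and -0.02; without loess, 1 of the 6 was 2-fold higher with centring on all spots and 1 lower with centring on spike-in spots. The lowest of these names was eomesa, a T-box gene of early mesendoderm, at -0.66 at 48 hpf (2 spots, -0.69 and -0.62). The tbx6-named spots, kept out of this list, had a median of -0.72 at that age. At 8 hpf tbx1 stood at 0.64 (1 measured spot), tbx3a at 0.32, eomesa at -0.12 and tbx2b at -0.37 (spots -0.67 and -0.07). At 48 hpf tbx1 stood at 0.35, tbx15 at 0.13 (spots -0.14 and 0.40) and tbx2a at -0.22.

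The presomitic mesoderm and segmentation list holds clock genes, Notch pathway genes and the Fgf, Wnt and retinoid genes of the tail. At 8 hpf 24 of its 28 names were measured and 19 lay above 0, with a median of 0.31 beside -0.02 for all names. Of the 24, 1 was 2-fold higher and 0 lower, beside 2.32% higher and 2.27% lower of all measured names. It was her12, a hairy-related repressor gene of the presomitic mesoderm, at 1.46 on 1 spot. Next stood wnt8a, a Wnt ligand gene of the margin that acts with tbxta to maintain tail progenitors, at 0.97 (2 spots, 0.95 and 0.99). The lowest were ripply2 at -0.27 and foxc1b at -0.19.

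At 48 hpf 18 of the 28 names were measured, 13 lay above 0 and the median was 0.30, beside -0.02 for all names. Here notch1a, a Notch receptor gene with 1 spot, was 2.45-fold higher and 0 were 2-fold lower. Over the array 1.29% of measured names were 2-fold higher and 1.28% lower. In the list, myf5, a myogenic factor gene, stood at 0.78 (spots 0.50 and 1.06). The lowest were foxc1b at -0.44 and uncx4.1 at -0.30. The count at 8 hpf depends on the scaling: without loess it was 3 higher with centring on measured spots, 11 higher with centring on all spots, and 1 lower and 0 higher with centring on spike-in spots. At 48 hpf 5 were higher with centring on all spots and 2 with the brightest spot of each name. The median at 8 hpf turned to -0.16 with centring on spike-in spots, where all names had a median of -0.59. Measured against all names, the list's median was higher in each of the 9 settings at both ages. The settings re-process the same arrays, which share probes and dye orientation, so they are not independent checks. The list was also drawn up with earlier results of these data known. The 3 centrings without loess count as 1 result here, since they shift the same ratios by a constant.

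In the notochord and axial mesoderm list, 12 of 12 names were measured at 48 hpf and 9 at 8 hpf, with medians of 0.13 and 0.24. At 48 hpf foxj1a (zgc:153050 on the array), a gene for a factor of motile cilia, was 2.84-fold higher. Its 1 spot read 489.5 in MO2-ers2a embryos and 98 in MO-control embryos. Of the list 0 were 2-fold lower, and over the array 1.29% of measured names were 2-fold higher and 1.28% lower. The others named at 48 hpf were chrd (chordin, a BMP antagonist) at 0.89, foxa2 at -0.20 and gsc at -0.68. At 8 hpf 0 were 2-fold apart. There shhb, a hedgehog ligand gene, stood at 0.42 (spots 0.20 and 0.65) and the organizer gene gsc at 0.41. The lowest were ihhb at -0.20 and foxa2, a forkhead gene of the axis, at -0.32. Without loess, centring on all spots gave 3 higher at each age; spike-in centring gave 1 lower at 8 hpf and turned that median to -0.24. At 48 hpf plain background subtraction gave 2 higher and the authors' deposited ratios 3. For ihhb the authors' deposited ratio was on the other side of 0, at 0.78, on a dim spot.

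**Figure D4:**
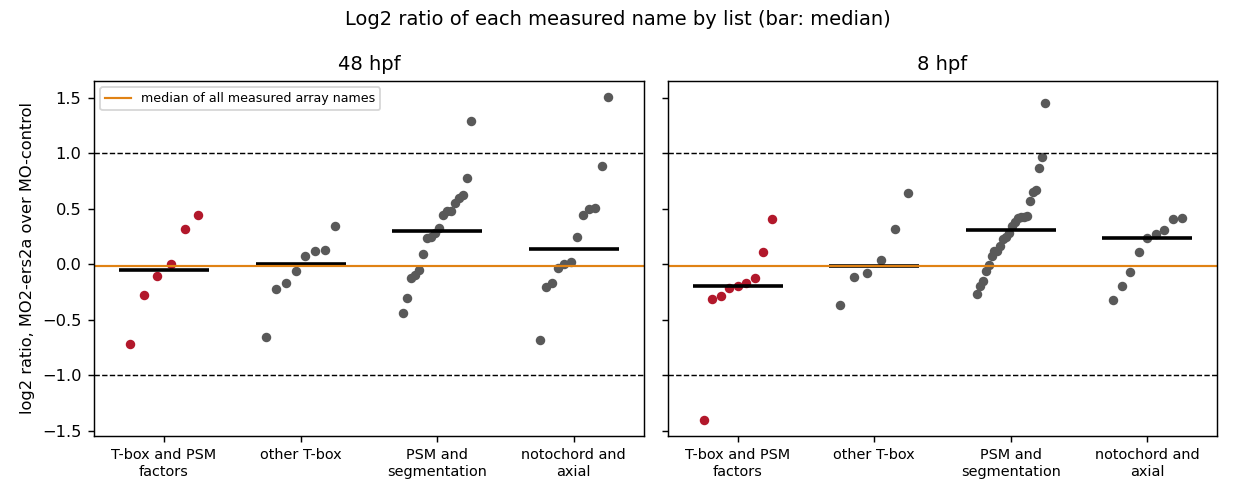
Log2 ratio of MO2-ers2a over MO-control for each measured array name (points) in the set of T-box and presomitic mesoderm (PSM) factors and in the other lists, at 48 hpf (left) and 8 hpf (right); bars are list medians, the orange line the median of all measured names and dashed lines 2-fold. At 8 hpf the median is 0.31 for the PSM and segmentation list and -0.20 for the 9 names, of which ntd5 is the lowest point at -1.40.

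Names with the most similar course over the 4 groups (MO2-ers2a and MO-control at 48 and 8 hpf) were found among 3655 names with an assigned symbol measured on both arrays. The measure was the Euclidean distance between the 4 normalized log2 levels after each name was centred on its own mean. Nearest to tbxta were snai1a, the gene of a zinc finger factor of moving mesoderm cells and itself on the segmentation list, at 0.16 and aldh3b1 at 0.20. Nearest to ntd5 were immp2l at 0.25 and gdpd3a at 0.35. The log2 ratio of immp2l was 0.32 at 48 hpf and -1.28 at 8 hpf, and that of gdpd3a -0.16 at 48 hpf, on the other side of 0 from ntd5, and -1.32 at 8 hpf. Neighbours were picked on the same levels that give these ratios, so a likeness to ntd5 follows from the choice.

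For noto the nearest were zp3, an egg coat gene, at 0.39 and foxd5 at 0.40. For the tbx24 spot of tbx6 they were tdgf1, the Nodal co-receptor gene, and the egg coat gene zp2.3, both at 0.37. For the tbx6-named spots they were zp2.3 at 0.40 and sp5l at 0.50. For ripply1, taken as the median of its disagreeing spots, they were ddx19b at 0.18 and cxcr4a at 0.23. For lack of a 48 hpf ratio, tbx16, mespaa and mespba have no neighbours here.

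**Figure D5:**
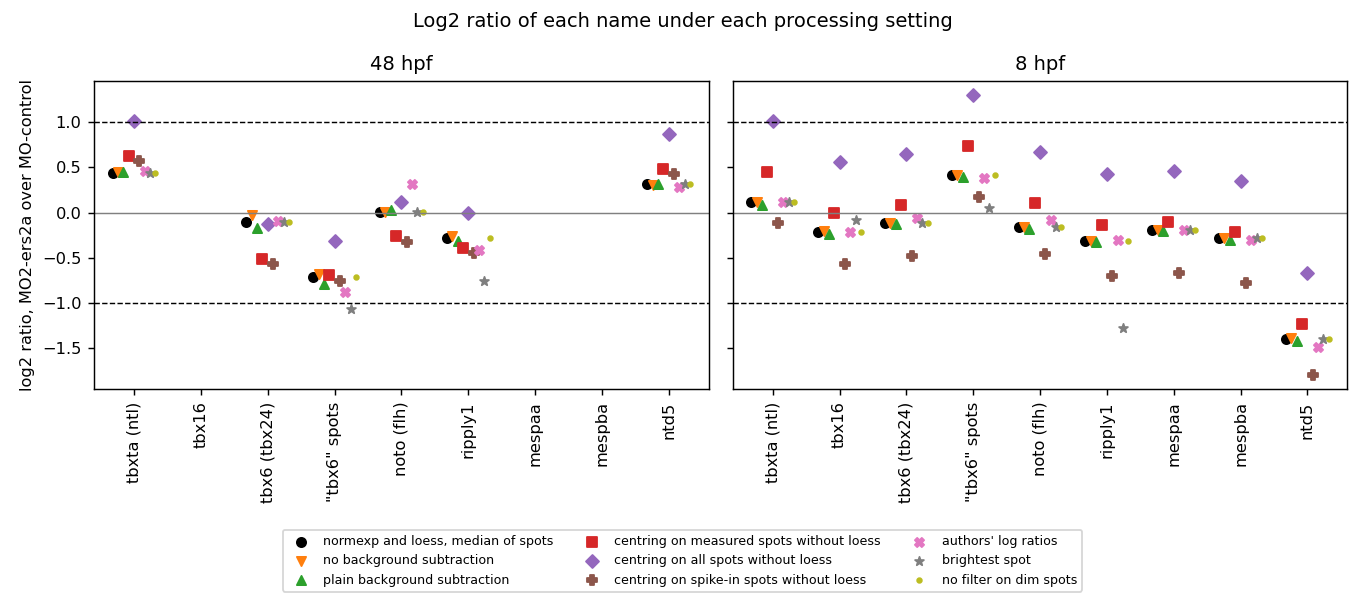
Log2 ratio of MO2-ers2a over MO-control for each of the 9 names under the 9 processing settings (symbols), at 48 hpf (left) and 8 hpf (right); dashed lines mark 2-fold. At 8 hpf ntd5 lies between -1.80 and -0.67 and tbxta between -0.12 and 1.01; at 48 hpf tbxta and ntd5 lie above 0 in every setting; names without points at 48 hpf were not measured.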

How the data were processed

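Per the file headers, the authors deposited, for each spot, the median signal intensity and median background intensity of each channel; Agilent Feature Extraction made them, per the submitters' processing notes (version not given in the sources used here). A deposited series matrix holds log10 values per spot. Against log2 Cy5 over Cy3 of bright spots these had slopes of 0.297 at 48 hpf and 0.289 at 8 hpf, which is the slope of a log10 ratio with Cy5 on top. Their medians were 0 at both ages; 34.7% and 36.8% of values are exactly 0 and were treated as not measured; their dye normalization is unknown. They were converted to log2 as an alternative.

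Signals were background-corrected by normexp (offset 50; limma 3.58.1, R 4.3.3), then fitted by loess within arrays with control spots at weight 0. The 1381 control spots of 45220 stayed out of the name values and of the counts of names and measured spots. They took part in background correction and in scaling between arrays, and some of them set the detection limits and the spike-in centring. A spot is measured when both channels exceed a limit, 2.6 SD over the mean of 153 negative controls (Cy5 27.7 and Cy3 70.1 at 48 hpf, 24.4 and 59.9 at 8 hpf). A name's value is the median of its measured spots; a call is 2-fold, a rule of size. For a spot under the limit at 48 hpf, the bound uses the higher of its own level and the lowest measured level. Other spots under the limit can lie above that lowest level, so these bounds are approximate. Background correction and loess were checked on simulated data, with changes set only on spots well above the limits, so dim spots were not covered. Unchanged spots were drawn around the loess curve fitted to these arrays. The check therefore cannot show whether loess removes a real shift shared by bright spots. Later steps ran in Python 3.11.15 with pandas 2.3.3, numpy 2.4.6 and matplotlib 3.10.9.

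Symbols come from RefSeq (assembly GRCz12tu) and a table of Ensembl IDs and symbols. Named are all 8 genes, the list members at 2-fold and the 2 highest and 2 lowest per list and age, and the 2 nearest names per gene. Genes, lists and rules were chosen with earlier results of these data known. No sequence is printed.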

Additional observations from a re-analysis of the deposited data

Results flagged for a closer look

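Among the 9 names, 2 had log2 ratios of opposite sign at the ages and at least 1 apart. ntd5 stood at 0.32 at 48 hpf and -1.40 at 8 hpf, a difference of 1.72, and each age has 1 spot. The tbx6-named spots stood at -0.72 at 48 hpf and 0.41 at 8 hpf, a difference of -1.13, with spot A at -1.06 and 0.05 and spot B at -0.38 and 0.77. With centring on spike-in spots that difference was -0.93, under 1 in size. Merged with the tbx24 spot, the tbx6-named spots stood at -0.38 at 48 hpf and 0.05 at 8 hpf, also less than 1 apart. Neither difference was tested, since each age has 1 array.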

How the results depend on the processing

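No paired analysis was possible because each age has 1 array and no replicate, and no replicate could be left out. The count of 2-fold names at 8 hpf, 1 (ntd5), was 2 with centring on all spots (tbxta and the tbx6-named spots, both higher, without ntd5) and 2 with the brightest spot (ripply1 and ntd5, both lower). At 48 hpf the count of 0 was 1 with centring on all spots (tbxta, at 1.01) and 1 with the brightest spot (the tbx6-named spots). Over the whole array, 431 names (217 higher, 214 lower) were 2-fold apart at 48 hpf and 711 (360 higher, 351 lower) at 8 hpf. Plain background subtraction gave 838 (302 higher) and 1106 (496 higher). Without loess, centring on measured spots gave 726 (286 higher) and 1128 (486 higher), centring on all spots 1351 (1265 higher) and 2624 (2526 higher), and centring on spike-in spots 817 (242 higher) and 3467 (129 higher). The authors' log ratios gave 1292 (496 higher) and 1757 (714 higher). Centring on all spots gave all names a median of 0.37 (48 hpf) and 0.54 (8 hpf); with spike-in spots these were -0.08 and -0.59. The difference between the ages ran from 1.54 to 2.22 for ntd5 and from -1.61 to -0.93 for the tbx6-named spots over the 9 settings. The merge with the tbx24 spot, which made it smaller, is not among these settings. With a limit of the mean plus 1 SD, 7 names were measured at 48 hpf. The ntd5 ratio at 8 hpf stayed below 0 in all 9 settings, while tbxta there ran from -0.12 to 1.01 and ripply1 from -1.28 to 0.43. The brightest-spot and no-filter settings could not change ntd5 or tbxta, which have 1 spot each. The cause of the moved values was not tested. Signal near background limits tbx16, mespaa and mespba at 48 hpf.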
